A study of Oryctolagus cuniculus with 2 samples.

Results

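Cholesterol is made from acetyl-CoA through mevalonate, squalene and a chain of enzymes that trim the sterol ring. The amount made is set by SREBP transcription factors, which the escort protein SCAP carries out of the endoplasmic reticulum when sterols are scarce and which the INSIG proteins hold back when sterols are plentiful. In the opposite direction, oxysterols bind the nuclear receptors named LXR, which switch on genes that export sterol from the cell. The retina makes cholesterol of its own and also takes it up from the blood, and it removes part of it by oxidation. The genes described here are 38 genes of cholesterol synthesis, sterol sensing, sterol uptake and disposal and the linked synthesis of fatty acids, chosen by name. Of these, 28 had a probe set that carried their symbol alone in the platform annotation and 10 did not, among 15605 genes named in this way. The genes without such a probe set were MVD, FDPS, HSD17B7, DHCR7, SREBF1, LRP8, NR1H2, CYP46A1, FASN and SCD, and no value is given for them.

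The data were 2 arrays of retinal RNA from the rabbit (Oryctolagus cuniculus), of the Dutch breed. The RVO (retinal vein occlusion) retina came from a right eye whose retinal veins had been closed with an argon green laser, and the control retina from an untreated left eye, both taken at day 7. Controls in the study were the contralateral eyes of animals with RVO. The laser-burned area was cut out of the sample before RNA extraction, so the RVO array reads the rest of a retina in which the veins had been closed. Whether the 2 retinas on the arrays were a pair from 1 rabbit, the age of the animals and whether retinas were pooled are not stated.

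Each value is a log2 signal, on which a step of 1 is a 2-fold change, and each difference is the signal in the RVO array minus that in the control array. Since each condition was measured once, replicate error is unknown, no test could be run and differences are described by their size. The only spread that could be measured was that between probe sets of the same gene, whose pooled SD was 0.19 over 118 genes; it covers neither the animals nor errors shared by a whole array. Each of the 28 genes was read by a single probe set. A gene was counted when its higher signal reached 5, the limit under which the study calls a signal low, and 12724 genes reached it. Of the 28 genes, 27 did so, and IDI1 did not. Over all 12724 genes the median difference was -0.04, with quartiles of -0.20 and 0.15. Photoreceptor transcripts, which define a retina, were abundant in both arrays, with RCVRN at 12.96 and 12.92 and SAG at 12.95 and 12.80 in the control and RVO arrays. These were the least changed of 7 rod and cone markers, all lower in the RVO array, with mean signals of 11.94 and 11.56. Of all genes, 56.0% were lower. Skeletal muscle markers had means of 5.86 and 8.93. Whether the tissue sampled differed between the arrays was not tested.

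The enzymes of cholesterol synthesis were lower in the RVO array as a block. All 13 that passed the signal limit had a difference below 0, from -0.17 to -0.62, with a median of -0.40, where 56.0% of all genes lay below 0. Of these 13 enzymes, 12 had a difference among the lowest 25% of all genes. The differences were small: none of the 13 was lower by over 2-fold, a size that 0.479% of all genes passed, and 2 were lower by over 1.5-fold, against 3.03% of all genes. Among the members of sterol handling, NR1H3, CYP27A1 and LRP1 were higher by 1.61-fold to 1.89-fold and SOAT1 by 1.33-fold. MYLIP was at 0, and STARD4, a sterol carrier, had a difference of -0.60. Over all 27 genes, 18 lay below 0, 7 above 0 and 2 at 0, with a median of -0.31. None of the 27 passed 2-fold in either direction, and the share of all genes higher by over 2-fold was 3.50%. At 1.5-fold, 5 were lower and 3 were higher, and 7.25% of all genes were higher by that much. The study's own gene set analysis of human homologs listed a set named cholesterol homeostasis among those upregulated in RVO. That set is not the list of 13 enzymes, and its genes were not read as a set here.

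**Figure D1:**
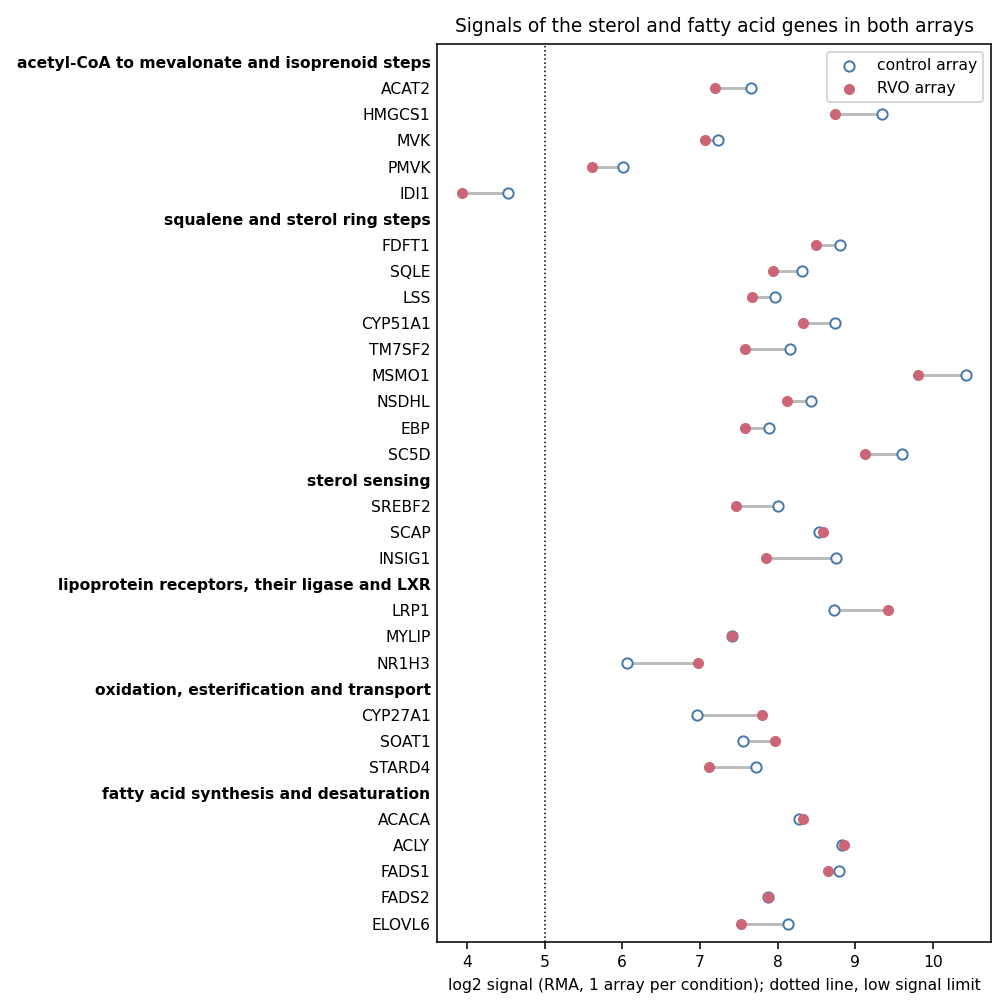
Log2 signal of each of the 28 genes (horizontal axis) in the control array (open circles) and the RVO array (filled circles), ordered by role, with 1 array per condition and a dotted line at the low signal limit of 5. The RVO circle lies left of the control circle for all 14 enzymes of cholesterol synthesis, IDI1 included, and right of it for LRP1, NR1H3, CYP27A1 and SOAT1.

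The first steps build mevalonate and turn it into activated isoprene units. HMGCS1, which joins acetoacetyl-CoA and acetyl-CoA into HMG-CoA, had log2 signals of 9.34 in control and 8.74 in RVO retina, a difference of -0.60 or 0.660-fold. In all, 352 of the 12724 genes had a lower difference. ACAT2, the cytosolic thiolase that supplies its acetoacetyl-CoA, had 7.66 and 7.19, a difference of -0.46. Of the kinases that follow, PMVK, which phosphorylates phosphomevalonate, had 6.01 and 5.61, a difference of -0.40. MVK, mevalonate kinase, had 7.24 and 7.06. The difference of MVK, -0.17, was the smallest in size of the 13 enzymes, the only one inside the quartiles of all genes and under the SD of 0.19 between probe sets. IDI1, the isomerase that makes the reactive isoprene unit, had 4.52 and 3.94, a difference of -0.58 between low signals. The 4 enzymes of this stretch that passed the signal limit had a median of -0.43.

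The steps from squalene to the finished ring were read by 9 enzymes, each of them among the lowest 25% of all genes, with a median of -0.37. FDFT1, squalene synthase, commits isoprenoids to sterols and had 8.81 in control and 8.49 in RVO retina, a difference of -0.32. SQLE, squalene monooxygenase, adds the first oxygen and is a rate-limiting enzyme of the pathway, and it had 8.32 and 7.94, a difference of -0.37. LSS, lanosterol synthase, closes the rings and had 7.96 and 7.67, a difference of -0.30. The differences of these consecutive steps lay closer together than the SD of 0.19 between probe sets.

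The enzymes that trim methyl groups from the ring spanned most of the range of the pathway, from -0.62 to -0.31. MSMO1, the methylsterol monooxygenase, had 10.43 and 9.81, and its difference of -0.62, or 0.652-fold, was the lowest of the 13 enzymes. TM7SF2, a sterol reductase, had 8.16 and 7.58, a difference of -0.58. It lay just short of 1.5-fold, at 0.668-fold. CYP51A1, the lanosterol demethylase, had 8.75 and 8.33, a difference of -0.42, and NSDHL, the dehydrogenase that acts after MSMO1, had 8.43 and 8.12, a difference of -0.31. The last enzymes read add or move double bonds: SC5D, a sterol desaturase, had 9.60 and 9.13, a difference of -0.47, and EBP, a sterol isomerase, had 7.88 and 7.58, a difference of -0.31. In the RVO array MSMO1 and HMGCS1 were the 2 enzymes lower by over 1.5-fold, but with the trend of differences with signal removed neither was, while all 13 stayed below 0.

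**Figure D2:**
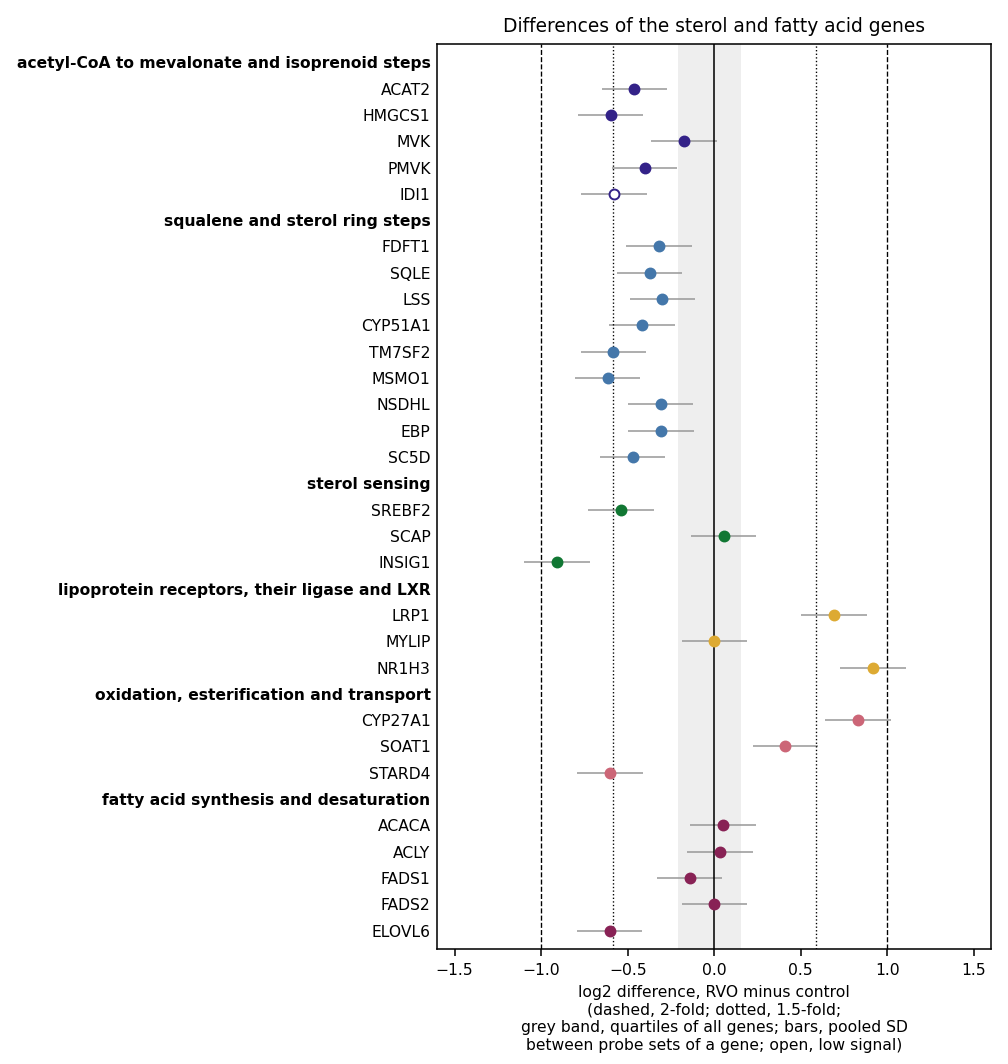
Difference in log2 signal between the RVO and control arrays (horizontal axis) for the 28 genes by role; dashed lines mark 2-fold, dotted lines 1.5-fold, the grey band the quartiles of all genes, the bars the pooled SD of 0.19 between probe sets, and the open circle IDI1, under the signal limit. The enzymes of synthesis lie left of the band except MVK, INSIG1 lies furthest left at -0.91 and NR1H3 furthest right at 0.92.

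Among the genes that sense sterols, INSIG1 had the lowest difference of all 27 genes. INSIG1 retains SCAP in the endoplasmic reticulum when sterols are plentiful, and its own transcription is raised by SREBP. Its log2 signals were 8.75 in control and 7.85 in RVO retina, a difference of -0.91 or 0.533-fold, and 84 of 12724 genes had a lower one. SREBF2, which encodes the SREBP that mainly drives sterol genes and which activates its own promoter, had 8.01 and 7.47, a difference of -0.54. SCAP, the escort protein, had 8.54 and 8.59, a difference of 0.05 that is under the SD between probe sets. STARD4, a carrier of sterol between membranes whose gene is also a target of SREBP, had 7.72 and 7.12, a difference of -0.60. INSIG1, SREBF2 and STARD4 lay below 0, as the enzymes of synthesis did, and SCAP did not. Whether the activity of SREBP differed between the retinas was not tested.

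**Figure D3:**
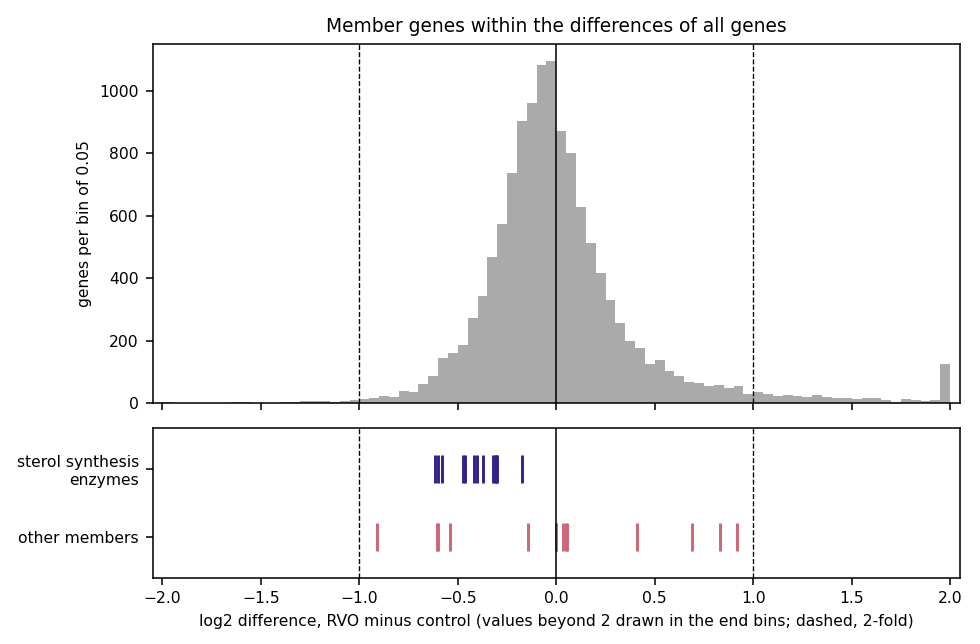
Number of genes (vertical axis) by difference in log2 signal (horizontal axis, RVO minus control, bins of 0.05) for all 12724 genes, above tick marks for the 13 enzymes of cholesterol synthesis and the other 14 genes that passed the signal limit. The ticks of the enzymes form a narrow band between -0.62 and -0.17, left of the peak of all genes near -0.04, while those of the other 14 genes run from -0.91 to 0.92.

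Of the remaining members of sterol handling, NR1H3, CYP27A1, LRP1 and SOAT1 were higher in the RVO array and MYLIP had the same signal in both. NR1H3 encodes LXR alpha, the oxysterol receptor found mainly in macrophages, liver and fat. It had 6.06 in control and 6.98 in RVO retina, a difference of 0.92 or 1.89-fold, which 505 of 12724 genes exceeded. CYP27A1, a mitochondrial hydroxylase that turns cholesterol into an oxysterol, had 6.97 and 7.80, a difference of 0.83 or 1.78-fold. LRP1, a large endocytic receptor for lipoproteins and proteases, had 8.73 and 9.42, a difference of 0.69 or 1.61-fold. SOAT1, which esterifies cholesterol for storage in droplets, had 7.55 and 7.96, a difference of 0.41. MYLIP, a ubiquitin ligase that LXR induces and that removes lipoprotein receptors from the cell surface, had 7.42 in both arrays.

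Of the 5 members of fatty acid synthesis, 4 had differences within the quartiles of all genes and ELOVL6 did not. ACLY, which makes cytosolic acetyl-CoA for both pathways, had 8.83 and 8.86, and ACACA, the carboxylase that commits acetyl-CoA to fatty acids, had 8.28 and 8.33. Their differences of 0.03 and 0.05 were under the SD between probe sets. The desaturases of polyunsaturated fatty acids differed little, with FADS1 at 8.79 and 8.65 and FADS2 at 7.88 in both arrays. ELOVL6, which lengthens saturated fatty acids, was at 8.13 and 7.53, a difference of -0.60 or 0.658-fold. The median of these 5 genes was 0.00. The deposited values of FADS2 and MYLIP were identical in both arrays to the last digit, as were those of 772 of 26193 probe sets, or 2.95%, so a difference of 0 there is not a finer measurement than the others.

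Other genes of the sterol pathway were read from a separate list of 51 names, of which 32 passed the signal limit. Of these, 3 were higher by over 2-fold, none was lower by as much, 22 lay above 0 and 10 below, with a median of 0.20. Over all genes 3.50% were higher and 0.479% lower by over 2-fold, and 42.8% lay above 0 and 56.0% below. Their median lay above that of all genes, and that of the 13 enzymes below it. In synthesis itself, ACAT1, the mitochondrial thiolase, had 9.17 and 9.49, a difference of 0.32. GGPS1, which makes the isoprenoid used to anchor proteins, had 9.51 and 9.45, and ERG28, a scaffold of the enzymes that remove methyl groups, had 9.25 and 9.16. LBR, a nuclear envelope protein that can carry out the same reduction as TM7SF2, had 7.66 and 7.96, a difference of 0.31 against -0.58 for TM7SF2. TMEM97, a sterol-regulated membrane protein, had 5.93 and 6.20, a difference of 0.27.

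The partners of INSIG1 and SCAP differed less than INSIG1 did, except PAQR3. INSIG2, the second INSIG protein, had 10.10 in control and 10.01 in RVO retina, a difference of -0.09 against -0.91 for INSIG1. MBTPS2, a protease that releases SREBP from the membrane, had a difference of 0.05. SPRING1, needed for the cleavage of SREBP in human cells, had one of 0.11. RNF139, ERLIN1 and ERLIN2, which take part in the sterol-driven destruction of pathway proteins, had differences of 0.20, 0.20 and 0.19. PAQR3 stood apart, at 9.20 and 10.40, a difference of 1.20 or 2.30-fold. In human and mouse cells its product tethers SCAP and SREBP to the Golgi.

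Enzymes that make or clear oxysterols were among the highest of these genes. CH25H, the cholesterol hydroxylase that interferon and bacterial products induce in macrophages, had 5.94 in control and 6.98 in RVO retina, a difference of 1.04 or 2.06-fold. CYP7B1 had 6.60 and 7.49, a difference of 0.88, and CYP39A1 had 6.49 and 7.05, a difference of 0.56. Both hydroxylate oxysterols further. NCEH1, which releases cholesterol from its esters, had 10.75 and 11.36, a difference of 0.61, and TSPO, a mitochondrial membrane protein that glia raise after injury, had 7.42 and 7.99, a difference of 0.57. The transfer proteins OSBP and GRAMD1B had differences of 0.03 and -0.46, and SOAT2, the other esterifying enzyme, had low signals of 5.17 and 4.89, a difference of -0.28. In all, 8 of the 10 genes of this list that passed the signal limit lay above 0, where 42.8% of all genes did, with a median of 0.46.

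Sterol export and its regulators gave mixed values. ABCA1, the transporter that loads cholesterol onto apolipoproteins and the best known target of LXR, had 5.91 in control and 7.14 in RVO retina, a difference of 1.22 or 2.33-fold. LPCAT3, a phospholipid enzyme that LXR also induces, had 8.12 and 8.60, a difference of 0.48. ABCG4, an exporter of neurons and glia, had 10.02 and 9.68, a difference of -0.33. Of the RXR receptors that pair with LXR, RXRB had a difference of 0.08, while RXRG had 7.82 and 6.86, a difference of -0.96 or 0.514-fold. RXRG is also known as a gene of cone photoreceptors. In uptake and lysosomal release, NPC2, which hands cholesterol out of the lysosome, had 6.95 and 7.53, a difference of 0.58, its partner NPC1 one of -0.14, the lysosomal lipase LIPA one of 0.20 and the receptors VLDLR and LRP2 ones of -0.28 and -0.22.

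**Figure D4:**
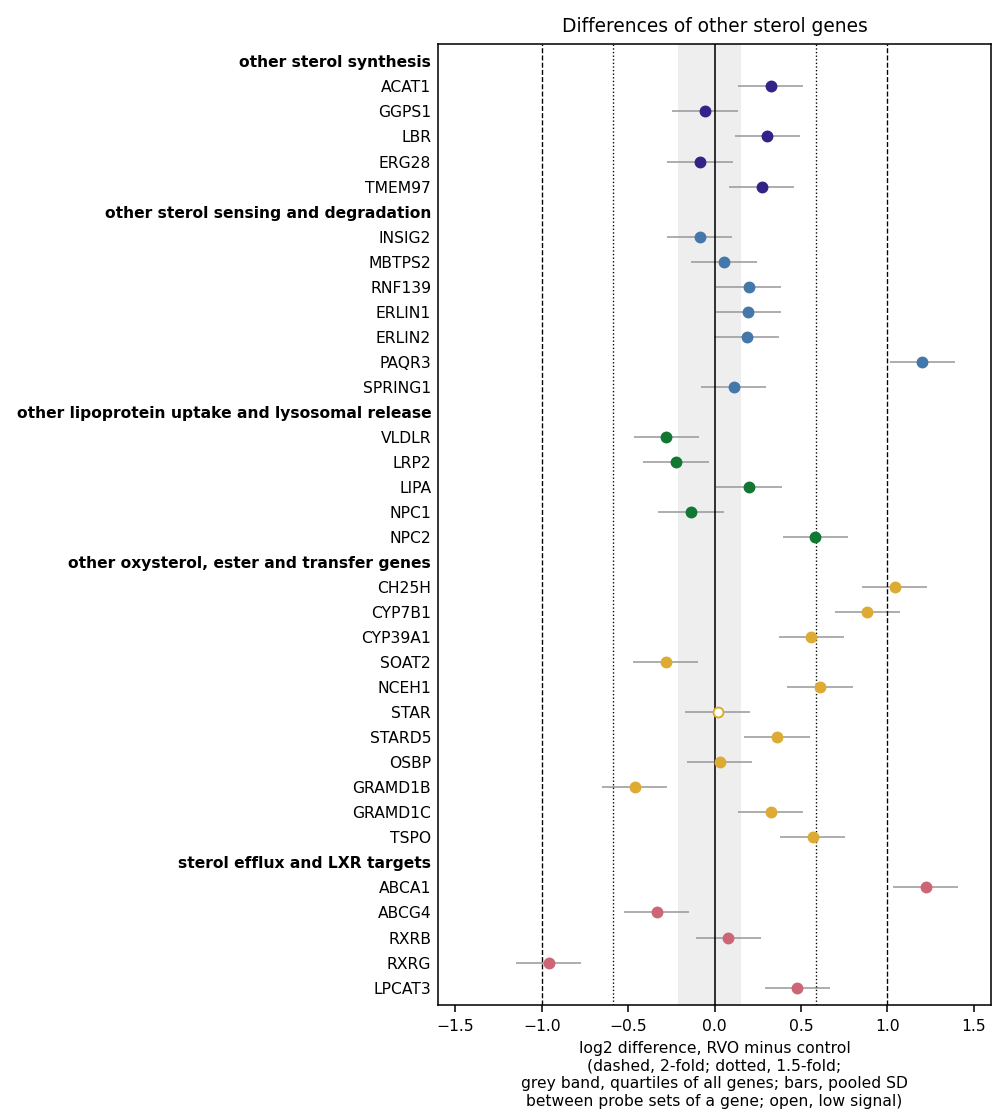
Difference in log2 signal between the RVO and control arrays (horizontal axis) for other genes of sterol synthesis, sensing, uptake, oxidation and export, with lines, band and bars as in the plot of the 28 genes and an open circle for STAR, under the signal limit. PAQR3 at 1.20, ABCA1 at 1.22 and CH25H at 1.04 lie beyond the 2-fold line on the right, and RXRG at -0.96 lies nearest to it on the left.

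Genes that mark cell types differed in both directions in these retinal samples, and in bulk RNA fewer cells of a type cannot be told apart from less RNA per cell. Of all genes, 56.0% lay below 0 and 42.8% above. On the lower side, all 7 measured markers of rods and cones lay below 0, with a median of -0.42 and a mean log2 signal of 11.94 in control and 11.56 in RVO retina. The enzymes of cholesterol synthesis had a median of -0.40, near this median and near that of oligodendrocytes below. All 9 markers of ganglion cells lay below 0, with a median of -1.0035, as did 3 of 4 markers of oligodendrocytes, with a median of -0.46, and 6 of 7 of the pigment epithelium, with a median of -0.55. Mean log2 signals in the control and RVO arrays were 8.85 and 7.47 for ganglion cells, 8.76 and 8.41 for oligodendrocytes and 7.72 and 7.23 for the pigment epithelium. For Müller glia and astrocytes, the latter known to supply neurons with cholesterol, 4 of 6 markers lay above 0, with a median of 0.56. Their mean log2 signals were 9.81 and 10.09 in the control and RVO arrays. Those above 0 included VIM at 0.54 and SLC1A3 at 0.61, and the 2 below were GLUL at -0.56 and RLBP1 at -0.67. RLBP1 was also counted among the markers of the pigment epithelium.

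On the higher side, all 11 markers of microglia and macrophages were above 0, with a median of 2.19 and a mean log2 signal of 6.23 in control and 8.07 in RVO retina. All 8 markers of fibroblasts and connective tissue and all 7 of skeletal muscle were higher by over 2-fold, with medians of 1.97 and 3.50 and mean log2 signals of 6.18 and 8.29 and of 5.86 and 8.93. Of all genes, 42.8% lay above 0 and 3.50% were higher by over 2-fold. Markers of cell division had a median of 2.30 over 6 genes, at 3.97 and 6.02, and those of endothelium one of 0.05 over 5 genes, at 6.71 and 6.98. The medians of microglia and macrophages, fibroblasts, skeletal muscle, cell division and Müller glia and astrocytes had the same sign as NR1H3, CYP27A1, LRP1, CH25H and ABCA1, and those of photoreceptors, ganglion cells, oligodendrocytes and the pigment epithelium the same sign as the enzymes of synthesis. Their part in these differences was not tested.

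**Figure D5:**
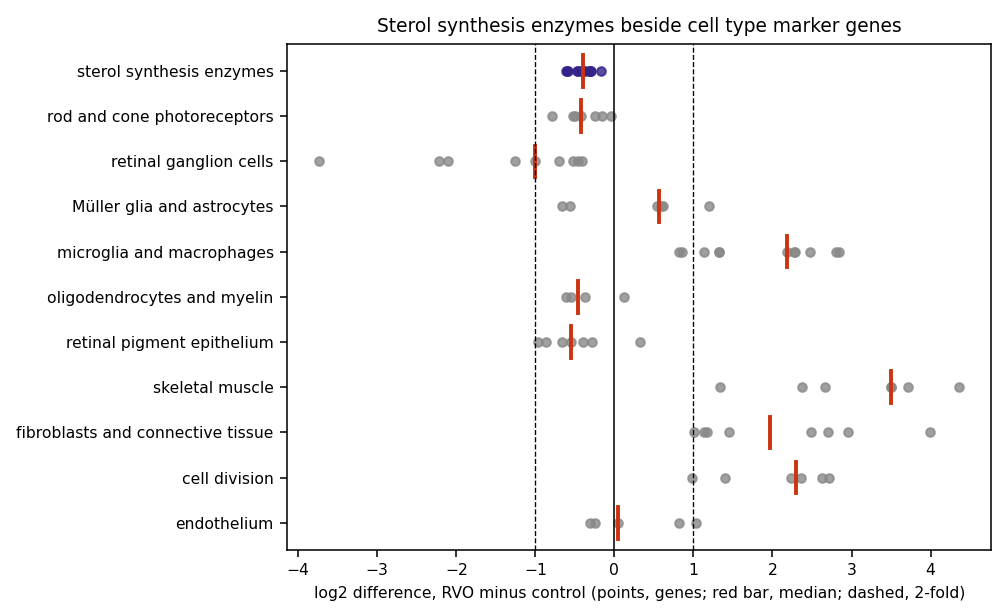
Difference in log2 signal between the RVO and control arrays (horizontal axis) for the 13 enzymes of cholesterol synthesis and for marker genes of retinal and other cell types; each point is a gene, red bars are medians and dashed lines mark 2-fold. The enzymes have a median of -0.40. Medians are -0.42 for rod and cone markers, which run from -0.79 to -0.04, and -0.46 for oligodendrocyte markers. Those of pigment epithelium and of microglia and macrophage markers are -0.55 and 2.19.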

How the data were processed

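Retinal RNA of 1 control and 1 RVO retina was hybridized to Rabbit Gene 1.0 ST arrays. The authors made the deposited log2 signals by RMA in R, which corrects the background, equalizes the distributions of the arrays and summarizes probe sets. The probe annotation behind it is not stated. These deposited log2 values were taken unchanged, with medians of 6.25 and 6.23 in the control and RVO arrays. The number of arrays, 1 per condition, limits the precision.

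Of 26193 probe sets, 15816 carried 1 symbol, 376 several and 10001 none in the platform annotation, and only the first were named. Each gene was read from its probe set with the highest mean signal, and genes whose higher log2 signal was under 5 were left out of counts. Of the 28 probe sets of the genes described, 27 had a gene identifier in the RefSeq table of assembly mOryCun1.1. Promoter sequences were not analysed here. Differences, counts and medians were computed in Python 3.11.15 with pandas 2.3.3, and the procedure was tested on simulated data. The simulation had no noise and shifts larger than any difference of the 28 genes, so it did not cover replicate error. No statistical test was possible. Alternatives were other signal limits, thresholds and scalings and averaging of probe sets. The text names all 28 genes, other sterol and fatty acid genes beyond 1.5-fold or with a role beside one of the 28, and leading markers of cell types. Genes and lists were chosen with earlier results of these data known.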

Additional observations from a re-analysis of the deposited data

How the results depend on the processing

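No gene of the 27 passed 2-fold, or 3-fold, in either direction under any setting tried, and at a threshold of 1.5-fold 5 were lower and 3 were higher. Averaging of probe sets could not change these values, since each of the 27 genes had 1 probe set. A signal limit cannot alter a difference either, and a limit of 6 kept all 27 genes. The count lower by over 1.5-fold was 2 of 27 with the trend with signal removed. Among the 13 enzymes of cholesterol synthesis that count was 1 after both arrays were given the same median and 0 with the trend removed, against 2 as deposited, and it was 3 when quantile normalization was repeated. All 13 lay below 0 in each of these settings, with medians from -0.37 to -0.40, and all 14 did, at a median of -0.41, with no signal limit. The median of the 14 genes outside synthesis changed from 0.02 to just below 0 with repeated quantile normalization. No difference of the 27 genes moved by more than 0.09, and none changed sign, apart from FADS2 and MYLIP, which were at 0 as deposited. Of the other genes 1 changed sign, HACD2 at 0.01. No paired analysis was possible because each condition has 1 array. The low control signal of IDI1 limits what can be said of it.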

Other observations

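Genes that lengthen, desaturate and activate fatty acids beside the members ACACA, ACLY, FADS1, FADS2 and ELOVL6 were read from a list of 25 names, of which 20 passed the signal limit. None was beyond 1.5-fold, 15 lay below 0 and 5 above, with a median of -0.20. Over all genes 3.03% were lower and 7.25% higher by over 1.5-fold, and 56.0% lay below 0. ELOVL4 and ELOVL2, elongases of the very long and polyunsaturated fatty acids of photoreceptor membranes, had log2 signals of 11.81 and 10.23 in control retina and of 11.56 and 9.85 in RVO retina. The desaturase SCD5 had 9.49 and 9.00, a difference of -0.50, and THRSP, a lipogenic regulator, had 5.71 and 5.16, a difference of -0.55. Above 0 were FADS3 at 0.58, ELOVL1 at 0.36, GPAM, which starts glycerolipid synthesis, at 0.26, and ELOVL5 at 0.19. ME1, which supplies reducing power to fatty acid synthesis, was at -0.29 and ACSS2, which activates acetate, at -0.18. The acyl-CoA synthetases ACSL3, ACSL4 and ACSL6 had differences of -0.13, -0.08 and -0.25.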
